A study of Mus musculus with 6 samples.

Results

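The insulin-like growth factor (IGF) genes examined here were 10 genes listed by name: the ligand Igf1, its receptor Igf1r, the adaptors Irs1 and Irs2, and the binding protein genes Igfbp2, Igfbp3, Igfbp4, Igfbp5, Igfbp6 and Igfbp7. All 10 were found among the 51733 gene symbols counted, and 9 of them passed the filter on low expression, together with 21330 genes in all. Igfbp6 did not pass. RNA came from neural progenitor cells (NPCs) sorted for Sox2, a transcription factor of neural stem cells, from the neural tubes of C57BL/6 mouse embryos at E13.5. The 3 control libraries came from wildtype siblings, and the 3 Ybx1-KO libraries from embryos homozygous for the germline null allele Ybx1tm1Ley. Ybx1 encodes a Y-box DNA- and RNA-binding protein. The study's methods describe the sort with a Sox2-eGFP reporter (Sox2tm1Hoch) in embryos of both genotypes, and whether embryos were pooled is not stated. Embryos of both sexes were used. Libraries are numbered 1 to 3 within each group, and these numbers pair no libraries. The titles of controls 1 and 2 share a number, as do those of Ybx1-KO 1 and 2, and its meaning is not explained, so p-values measure the spread between these libraries only.

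IGF1 is a secreted growth factor that binds the IGF1 receptor, a tyrosine kinase on the cell surface. The receptor signals through docking proteins encoded by Irs1 and Irs2 to the PI3K, AKT and mTOR pathway, which promotes growth, survival and proliferation, in brain progenitors among other cells. IGF-binding proteins (Igfbp genes) hold IGFs outside the cell, limit or extend their access to the receptor, and are themselves cut by proteases.

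The libraries held 4743279 to 23883542 counts on genes, with Ybx1-KO 3 the shallowest. That library stood apart, with 59.5% of its read pairs assigned to no gene feature against 30.6 to 46.7% in the other 5. Only 7.22% of its pairs were on genes, against 18.0 to 24.7%. It also had the most genes with a count, 39553 against 19649 to 30482, despite the fewest counts. Control 2 stood apart from the other controls in the Hox genes, which mark the hindbrain and spinal cord: their summed level over 39 genes was 1051 CPM (counts scaled to a common library total), against 128 and 320 CPM in controls 1 and 3. Ybx1, the deleted gene, had 235, 523 and 301 CPM in controls 1, 2 and 3 and 124, 54.5 and 9.51 CPM in Ybx1-KO 1, 2 and 3 after TMM scaling between libraries. Each Ybx1-KO library lay below every control (log2 fold change -2.49, SE 0.675, edgeR adjusted p = 0.302). All 15 NPC marker genes were detected in every library, Sox2 at 17.2 to 49.8 CPM. Summed neuron markers reached 1876 to 5468 CPM, so transcripts of neurons were abundant too. Summed markers ran from 60.5 to 159 CPM for pericytes and smooth muscle, from 215 to 1226 CPM for erythroid cells and from 140 to 1065 CPM for choroid plexus. The choroid plexus sum was 842 and 1065 CPM in controls 1 and 3. It was 151 CPM in control 2 and 140 to 215 CPM in the Ybx1-KO libraries. Every CPM given here carries the TMM scaling, while FPKM, which divides by the exon length and by the library's total on genes, does not and was used wherever 1 gene is compared with another. The TMM factor, by which CPM is divided, was 1.51 in Ybx1-KO 3 and 0.734 to 1.06 in the other 5 libraries. It thus lowers the CPM of Ybx1-KO 3 the most. SE stands for the standard error of a log2 fold change, always Ybx1-KO over control.

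A gene was called when its fold change passed 1.5 and its adjusted p fell under 0.05 in the quasi-likelihood test of edgeR. None of the 9 tested IGF genes was called, and neither was any other gene (0% of 21330). At an unadjusted p below 0.05 in that test, Igfbp4 and Igfbp7 were higher in Ybx1-KO NPCs and Igf1 was lower. The corresponding shares of all tested genes were 6.96% higher and 4.27% lower. The Ybx1-KO libraries lay wholly above the control libraries for Igfbp4, as they did for 4.99% of tested genes, and wholly below them for Igf1, as they did for 8.17%. The filter asked for a mean FPKM above 1 in either group. Igf1 passed it only through the controls, where it was high, with a mean of 2.70 FPKM against 0.944 in Ybx1-KO NPCs. Over the 9 tested IGF genes the log2 fold changes, 5 above 0 and 4 below, had a median of 0.039, against 0.31 over all tested genes. Of all tested genes 61.3% were higher. The median over all genes depended on the processing, and ran from -0.066 to 0.70 over the settings tried.

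Promoter sequences in RefSeq (GRCm38.p6) matched all 10 genes, with 11 windows because Igfbp2 has a pair of start sites. Shown here are the 250 bases before the start of the binding protein genes that were higher at an unadjusted p below 0.05, Igfbp4 (chr11:99040994-99041243, + strand) and Igfbp7 (chr5:77408046-77408295, - strand). Capitals mark the TATA box letters TATAAA and the GC box letters GGGCGG or, on the other strand, CCGCCC.
Igfbp4: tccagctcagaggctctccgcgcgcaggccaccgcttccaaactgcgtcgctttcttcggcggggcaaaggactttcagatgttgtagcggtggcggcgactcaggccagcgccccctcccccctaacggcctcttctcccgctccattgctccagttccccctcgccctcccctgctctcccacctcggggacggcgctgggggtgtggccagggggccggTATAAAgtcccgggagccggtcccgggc
Igfbp7: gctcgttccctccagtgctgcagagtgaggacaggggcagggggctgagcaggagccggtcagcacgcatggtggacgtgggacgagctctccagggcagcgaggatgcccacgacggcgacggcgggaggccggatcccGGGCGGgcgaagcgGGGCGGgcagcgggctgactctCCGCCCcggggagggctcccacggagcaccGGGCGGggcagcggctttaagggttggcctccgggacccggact
Igfbp4 has 1 TATA box, with its first base 28 bases before the start, and no GC box. Igfbp7 has 4 GC boxes and no TATA box. Of all 32851 mouse promoter windows of this length, 12.4% hold TATAAA or TTTATA and 32.7% a GC box. The letters CCAAT or ATTGG, the core of the Y-box for which Ybx1 is named, are in neither window. They occur in the windows of 3 of the 10 IGF genes, Igf1, Igfbp6 and Irs2, and in 33.8% of all windows. G and C make up 69.2% of the Igfbp4 window and 74.0% of the Igfbp7 window, against a median of 52.4% over all windows.

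**Figure D1:**
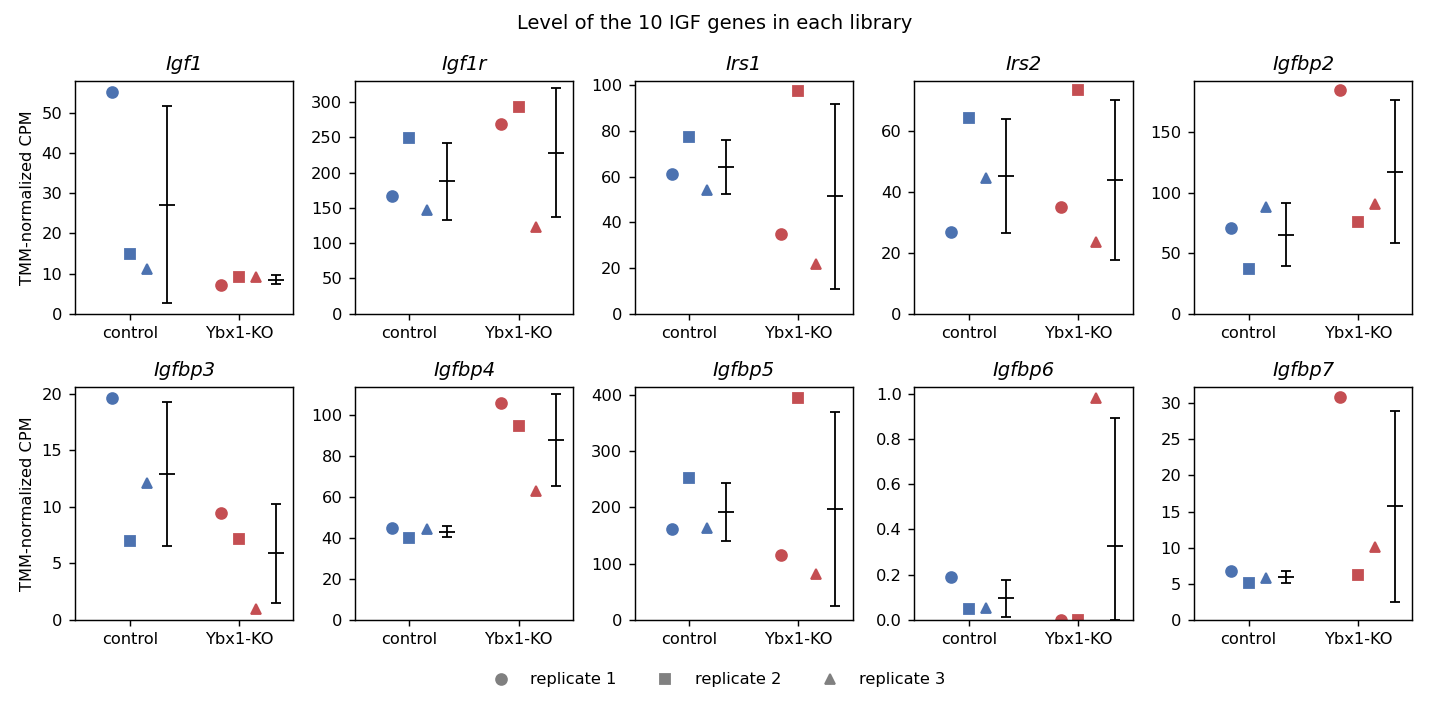
TMM-normalized CPM of the 10 IGF genes (vertical axes, each with its own scale) in the 3 control (blue) and 3 Ybx1-KO libraries (red), with the marker shape giving the replicate and the black bar the mean ± SD of the 3, cut at 0 for Igfbp6. For Igfbp4 all red points lie above all blue ones, for Igf1 all lie below, and in the other 8 genes the groups overlap.

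Igf1, the ligand, lies on chromosome 10 of GRCm38 from 87858265 to 87937042 (+ strand). It had 55.3, 14.9 and 11.2 CPM in controls 1, 2 and 3. In Ybx1-KO 1, 2 and 3 it had 7.26, 9.10 and 9.09 CPM. The Ybx1-KO values were close to each other and below every control, while control 1 was far above the other controls. The means were 27.1 ± 24.5 (SD, n = 3) and 8.48 ± 1.06 CPM (SD, n = 3), a log2 fold change of -1.68. Its SE was 0.549 and its edgeR adjusted p was 0.401 (unadjusted p = 0.0074), and the two-sided exact permutation test gave p = 0.1, the smallest that 3 against 3 libraries allow. Without control 1 the log2 fold change was -0.62 (adjusted p = 0.801, edgeR). Without Ybx1-KO 1 or Ybx1-KO 2, with the expression filter applied again, Igf1 was called (adjusted p = 0.0272 and 0.0315, edgeR), but it was not when the gene set of the full comparison was kept (adjusted p = 0.183 and 0.0945, edgeR), a setting chosen after seeing the data. On the FPKM scale, which lacks the TMM factor, the groups overlapped, since Ybx1-KO 3 had 1.38 FPKM and controls 2 and 3 had 1.37 and 1.05.

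Set beside Igf1 were the markers of mesenchyme and meninges, cells that surround the neural tube and make Igf1 in many tissues. The summed CPM of 15 such genes was 1173 in control 1, 237 in control 2 and 315 in control 3, against 198, 234 and 142 in Ybx1-KO 1, 2 and 3. Control 1 thus held the highest value of both. Among the other libraries the orders differed. Control 3 had a higher marker sum than control 2 but less Igf1. Ybx1-KO 3 had the lowest marker sum but not the lowest Igf1. None of the 15 was at 0 counts in any library. At an unadjusted p below 0.05, 7 of the 13 that passed the filter were lower in Ybx1-KO NPCs, against 4.27% of all tested genes. In all, 11 of the 13 were lower, and 0 were called. The most abundant, the collagen genes Col3a1 and Col1a2, had 323 and 220 CPM in control 1 and at most 44.9 and 64.8 CPM in the other 5 libraries. Summed microglia and macrophage markers, over 13 genes, were also highest in control 1, at 105 CPM against 12.5 to 64.5 CPM elsewhere, with 5 of the 13 at 0 in Ybx1-KO 1 and 2 in Ybx1-KO 2. The part of these cells in the Igf1 result was not tested. In bulk RNA, fewer cells of a type and less RNA per cell cannot be told apart.

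Igf1r, the receptor gene, lies on chromosome 7 from 67952827 to 68233668 (+ strand). It had 167, 250 and 146 CPM in controls 1, 2 and 3 and 269, 293 and 123 CPM in Ybx1-KO 1, 2 and 3. The groups overlapped, with the lowest value of all in Ybx1-KO 3. Its log2 fold change was 0.28 (SE 0.455, edgeR adjusted p = 0.780), close to the median of all tested genes. In FPKM its level exceeded that of Igf1 in every library, by 1.79 times in control 1, 9.89 and 7.71 times in controls 2 and 3, and 21.8, 19.0 and 7.99 times in Ybx1-KO 1, 2 and 3.

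Irs1 and Irs2 encode the docking proteins that the activated receptor phosphorylates. Irs1, on chromosome 1 from 82233101 to 82291416 (- strand), had 61.3, 77.4 and 54.2 CPM in the controls and 34.8, 97.6 and 21.7 CPM in Ybx1-KO 1, 2 and 3. Irs2, on chromosome 8 from 10984681 to 11008458 (- strand), had 27.0, 64.4 and 44.6 CPM in the controls and 34.9, 73.7 and 23.5 CPM in Ybx1-KO 1, 2 and 3. On this scale the highest Ybx1-KO value of both genes, that of replicate 2, lay above every control, and at least 1 of the others lay below every control. In FPKM this held for Irs1 only. All Irs2 values of the Ybx1-KO libraries (5.60 to 8.56 FPKM) then lay within the range of the controls (4.33 to 9.26 FPKM). The log2 fold changes of Irs1 and Irs2 were -0.32 (SE 0.480) and -0.040 (SE 0.458), both smaller than their errors. In edgeR the adjusted p was 0.761 for Irs1 and 0.976 for Irs2. Without Ybx1-KO 2, the log2 fold change of Irs1 was -1.24 (adjusted p = 0.164, edgeR), and without Ybx1-KO 3 it was 0.043. Exons of Irs1 share 2822 bases with Gm9747 on the other strand, which had 41 to 345 counts a library, and the strand setting of the counting is not given in the sources used here, so the Irs1 counts are uncertain. Irs2 shares 162 exon bases with 9530052E02Rik, also on the other strand, which had 1 to 21 counts a library.

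Igfbp4 was the binding protein gene whose groups did not overlap. It encodes an inhibitor of IGF action that is released from IGF when the protease PAPP-A cuts it. The gene lies on chromosome 11 from 99041244 to 99054392 (+ strand). It had 44.7, 39.9 and 44.4 CPM in controls 1, 2 and 3 and 105, 94.5 and 62.7 CPM in Ybx1-KO 1, 2 and 3. The 3 controls were within 1.12 times of each other, and each Ybx1-KO library lay above all of them, in FPKM too (8.20 to 10.3 against 15.7 to 25.2). The means were 43.0 ± 2.70 (SD, n = 3) and 87.6 ± 22.2 CPM (SD, n = 3), a fold of 2.04. The log2 fold change was 1.03 (SE 0.374, edgeR adjusted p = 0.430, unadjusted p = 0.014), and the exact permutation test gave p = 0.1. It ran from 0.81 without Ybx1-KO 1 to 1.23 without Ybx1-KO 3. DESeq2 called Igfbp4 (log2 fold change 1.10, adjusted p = 0.0246) among 214 genes it called in all. Over the 24 settings tried, the adjusted p of Igfbp4 ran from 0.0246 to 0.787. Floor plate markers, from the ventral midline of the neural tube, stood at 136, 163 and 147 summed CPM over 11 genes in the controls and 265, 345 and 163 CPM in Ybx1-KO 1, 2 and 3, the last within the range of the controls. The most abundant were Spon1, an adhesion protein gene, and Ntn1, which encodes the axon guidance cue netrin. Of the 10 that passed the filter, 9 were higher in Ybx1-KO NPCs, 7 of them at an unadjusted p below 0.05. Among all tested genes 61.3% were higher, 6.96% at that threshold, and 4.27% were lower at it. The other 1 of the 10 was lower without passing that threshold, and 0 were called. All 11 were detected in every library but control 3, where 1 was at 0. Of the 15 NPC markers, 11 were higher (5 at an unadjusted p below 0.05) and 4 lower (1 at that threshold), with a median log2 fold change of 0.66. Their sum was 1825, 1993 and 2013 CPM in the controls and 2596, 2469 and 1546 CPM in Ybx1-KO 1, 2 and 3, so the last was the lowest of all on this scale. The place of Ybx1-KO 3 in this sum and in that of the floor plate markers depends on its TMM factor of 1.51. Of the 15 neuron markers, 4 were higher (1 at that threshold) and 11 lower (3 at that threshold), with a median of -0.54. None of either list was called, and the part of these cell types in the Igfbp4 result was not tested.

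Igfbp7 encodes a secreted protein with low affinity for IGFs that is common in vessel walls. The gene lies on chromosome 5 from 77349240 to 77408041 (- strand). It had 6.80, 5.16 and 5.80 CPM in the controls and 30.8, 6.23 and 10.1 CPM in Ybx1-KO 1, 2 and 3. Ybx1-KO 1 was far above the rest, and Ybx1-KO 2 lay within the range of the controls. The log2 fold change was 1.41 (SE 0.584, edgeR adjusted p = 0.443, unadjusted p = 0.028), and 0.37 without Ybx1-KO 1. The summed level of 15 endothelial markers, genes of the vessel lining, was 73.2, 35.8 and 40.1 CPM in the controls and 20.2, 41.2 and 125 CPM in Ybx1-KO 1, 2 and 3. It was lowest in Ybx1-KO 1, where Igfbp7 was highest and 4 of the 15 were at 0, and highest in Ybx1-KO 3, which had the next highest Igfbp7. The part of these cells in the Igfbp7 result was not tested. Exons of Igfbp7 share 85 bases with Polr2b on the other strand. Polr2b had 495 to 2738 counts a library, against 61 to 276 for Igfbp7. Since the strand setting of the counting is not given, the Igfbp7 counts over these bases are uncertain.

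Igfbp2 and Igfbp5 are neighbours on chromosome 1, Igfbp2 from 72824503 to 72852474 (+ strand) and Igfbp5 from 72857932 to 72874884 (- strand), with 5.46 kilobases between their ends. Both encode binding proteins known from the embryonic nervous system. Igfbp2 had 70.9, 36.8 and 88.2 CPM in controls 1, 2 and 3 and 185, 75.9 and 90.8 CPM in Ybx1-KO 1, 2 and 3. Its groups overlapped, with control 2 the lowest and Ybx1-KO 1 the highest. Its log2 fold change was 0.84 (SE 0.454, edgeR adjusted p = 0.450), 0.27 without Ybx1-KO 1 and 0.56 without control 2. Igfbp5 had 162, 252 and 163 CPM in the controls and 116, 395 and 81.1 CPM in Ybx1-KO 1, 2 and 3. Its values in Ybx1-KO 1 and 3 lay below every control and that in Ybx1-KO 2 above every control. The means were 192 ± 51.6 (SD, n = 3) and 198 ± 172 CPM (SD, n = 3). Its log2 fold change was 0.039 (SE 0.538, edgeR adjusted p = 0.980) and -1.02 without Ybx1-KO 2 (adjusted p = 0.345, edgeR). In FPKM, Igfbp5 exceeded Igfbp2 only in the libraries numbered 2, with a ratio of 2.11 in control 2 and 1.60 in Ybx1-KO 2. The ratio was 0.704 and 0.567 in controls 1 and 3 and 0.193 and 0.275 in Ybx1-KO 1 and 3. The summed Hox level was 128, 1051 and 320 CPM in controls 1, 2 and 3 and 1314, 1362 and 666 CPM in Ybx1-KO 1, 2 and 3. It was thus high in both libraries with a ratio above 1, but also in Ybx1-KO 1, which had the lowest ratio.

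Igfbp3 encodes the main IGF carrier of the blood. The gene lies on chromosome 11 from 7206086 to 7213923 (- strand). It had 19.6, 7.00 and 12.1 CPM in the controls and 9.49, 7.15 and 0.979 CPM in Ybx1-KO 1, 2 and 3, where the last value stands for 7 counts. The groups overlapped, because control 2 lay below Ybx1-KO 1 and 2. The log2 fold change was -1.13 (SE 0.676, edgeR adjusted p = 0.468), and -0.62 without Ybx1-KO 3. Igfbp6, on chromosome 15 from 102144362 to 102149511 (+ strand), had 4, 1 and 1 counts in the controls and 0, 0 and 7 counts in Ybx1-KO 1, 2 and 3. A count of 0 allows up to 0.335 CPM in Ybx1-KO 1 and 0.307 CPM in Ybx1-KO 2 (3 counts over the TMM-scaled library total, counting error only), so no difference in Igfbp6 was detectable at this depth.

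**Figure D2:**
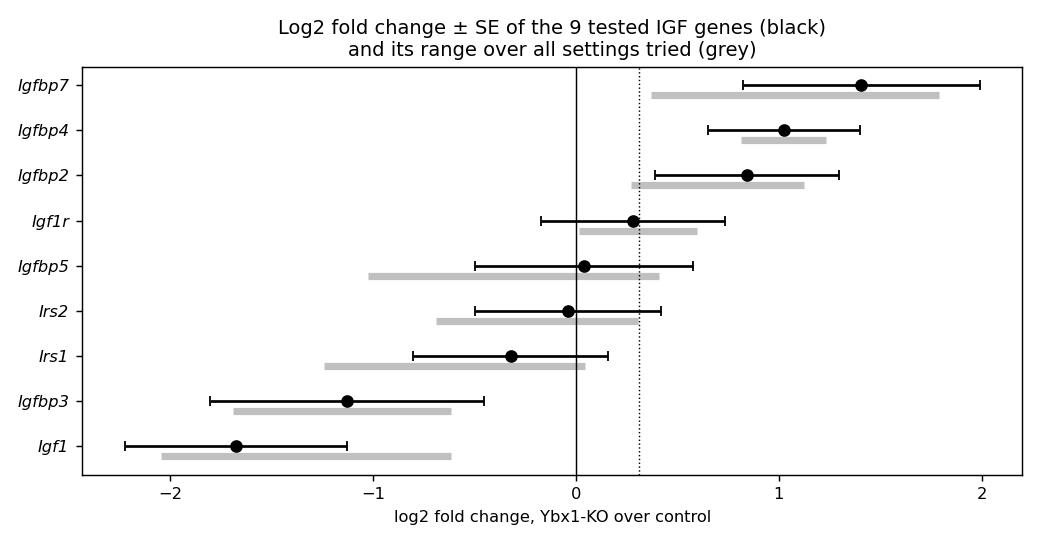
Log2 fold change (Ybx1-KO over control, horizontal axis) of the 9 tested IGF genes, with the edgeR value and its SE in black and the lowest to highest value over the settings tried in grey. The solid line marks no change and the dotted line the median of all tested genes, 0.31. The grey ranges of Igfbp5, Irs1 and Irs2 cross 0, and those of the other 6 genes stay on 1 side.

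Per exon length, Igfbp2 was the most abundant of the 10 genes in both groups, at 33.8 ± 13.8 FPKM (SD, n = 3) in control and 70.0 ± 37.9 FPKM (SD, n = 3) in Ybx1-KO NPCs. Igfbp5 followed, with 30.2 ± 6.92 and 29.7 ± 16.2 FPKM (SD, n = 3 each). Their ranges overlapped in both groups, so the order of these genes was not settled. In control NPCs there followed Igf1r (10.6 FPKM), Igfbp4 (9.26), Irs2 (6.71), Irs1 (6.66), Igfbp7 (4.68), Igfbp3 (4.00) and Igf1 (2.70), where each range overlapped the next. The ranges of Igfbp5 and Igf1r did not overlap, and Igfbp6 stood apart at 0.084 FPKM. In Ybx1-KO NPCs Igfbp4 (20.8 FPKM) and Igfbp7 (14.4) stood before Igf1r (13.6), again with overlapping ranges, and Irs2 (6.67), Irs1 (5.15), Igfbp3 (1.78), Igf1 (0.944) and Igfbp6 (0.442) followed. The ranges of Igf1r and Irs2 did not overlap in this group, nor did those of Irs1 and Igfbp3.

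The make-up of the Igfbp level was compared within each library, which removes any scaling between libraries. Igfbp4 made up 11.5, 11.7 and 10.7% of the summed FPKM of the 6 Igfbp genes in controls 1, 2 and 3, and 13.9, 15.8 and 16.4% in Ybx1-KO 1, 2 and 3. Igfbp3 made up 7.17, 2.89 and 4.13% in the controls and 1.76, 1.68 and 0.362% in the Ybx1-KO libraries. In neither gene did the groups overlap, although with CPM in place of FPKM those of Igfbp3 did. The share of Igfbp5 ran from 28.9 to 54.2% in controls and from 11.2 to 48.5% in Ybx1-KO libraries, and that of Igfbp2 from 25.7 to 51.0% and from 30.3 to 58.3%. The summed FPKM of the 6 genes was 89.0, 70.3 and 86.7 in the controls and 181, 99.7 and 130 in the Ybx1-KO libraries. On TMM-normalized CPM the sum was 304, 341 and 313 in the controls and 447, 579 and 247 in Ybx1-KO 1, 2 and 3, so on that scale the groups overlapped, with Ybx1-KO 3 the lowest of the 6.

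**Figure D3:**
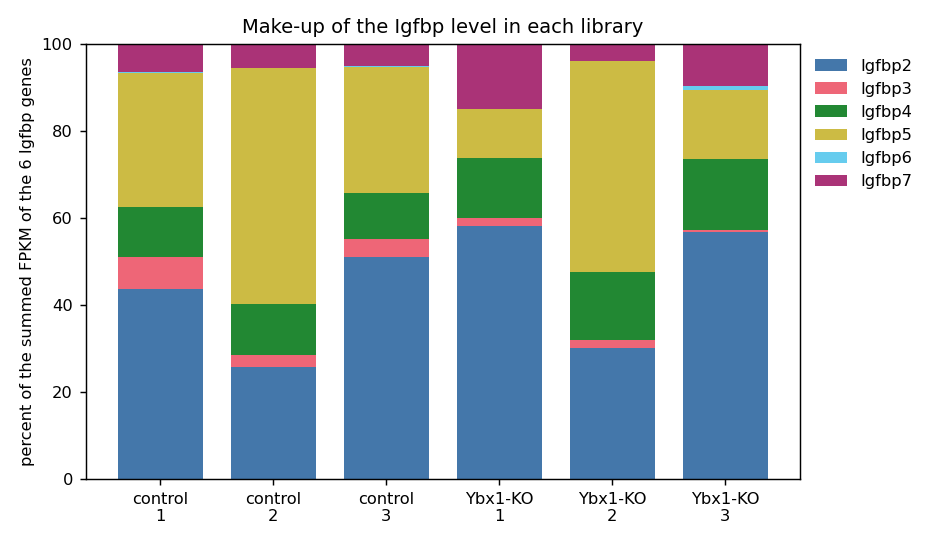
Share of each Igfbp gene in the summed FPKM of the 6 Igfbp genes (vertical axis, percent), 1 bar for each of the 3 control and 3 Ybx1-KO libraries. Igfbp2 and Igfbp5 fill most of every bar, Igfbp5 leads in control 2 and Ybx1-KO 2, and the Igfbp4 part is 10.7 to 11.7% in controls and 13.9 to 16.4% in Ybx1-KO libraries.

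Genes with a pattern like that of the most abundant IGF gene, and of the pair whose groups did not overlap, were sought among 9548 tested genes with a mean above 10 CPM. Likeness was Pearson's r of log2(CPM + 0.5) over the 6 libraries, which share their depth and TMM factors. The nearest to Igfbp2 were Gm12338, Spc24 and Lsm6 (r = 0.994, 0.991 and 0.991), with 242 genes above 0.9. The nearest to Igf1 were Dars, Clk1 and Col11a1 (0.995, 0.990 and 0.988), with 80 genes above 0.9. The nearest to Igfbp4 were Hist1h2be, Qtrt1 and Terc (0.990, 0.987 and 0.986), with 94 genes above 0.9.

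Other genes of the IGF axis were read from the same edgeR fit. Of 22 other ligand, receptor, adaptor and related genes, 15 were tested, 6 higher and 9 lower in Ybx1-KO NPCs (median log2 fold change -0.11). None of those tested had an unadjusted p below 0.05. The ligand genes of this list did not pass the filter. Igf2, another IGF ligand gene, was in no list and is not reported here. The smallest p-values were those of Insrr, a relative of the insulin receptor (log2 fold change 2.98, SE 1.47), Gab1, a docking protein (-0.69, SE 0.412), and Shc2, an adaptor (0.61, SE 0.375), all with an adjusted p of at least 0.449 in edgeR. Insrr had 10, 19 and 9 counts in the controls and 0, 30 and 81 counts in Ybx1-KO 1, 2 and 3. It passed the filter only through the Ybx1-KO group, with a mean of 1.13 FPKM there and 0.0987 FPKM in controls. Insr, the insulin receptor gene, had 114, 140 and 72.1 CPM in the controls and 113, 118 and 72.6 CPM in Ybx1-KO 1, 2 and 3, so its groups overlapped.

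Of 16 genes of IGFBP proteases and their inhibitors, 10 were tested, 5 higher and 5 lower (median log2 fold change 0.046). Pappa, which encodes the PAPP-A protease that cuts the Igfbp4 protein, had 3.97, 8.20 and 2.90 CPM in the controls and 9.38, 22.7 and 24.8 CPM in Ybx1-KO 1, 2 and 3. Each Ybx1-KO library lay above every control, with a log2 fold change of 1.91 (SE 0.551, edgeR adjusted p = 0.350, unadjusted p = 0.0030). Pappa passed the expression filter only through the Ybx1-KO group, with a mean of 1.93 FPKM there and 0.428 FPKM in controls. The group in which it was high thus admitted it to the test. Stc1, which encodes an inhibitor of that protease, had 5.15, 5.07 and 10.8 CPM in the controls and 2.01, 4.19 and 13.6 CPM in Ybx1-KO 1, 2 and 3, and its groups overlapped. Klk1, a kallikrein protease, also had an unadjusted p below 0.05, from 0, 0 and 1 counts in the controls and 0, 6 and 35 counts in Ybx1-KO 1, 2 and 3. Like Pappa, it passed the filter only through the Ybx1-KO group.

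Of 34 genes of the PI3K, AKT, mTOR and FOXO branch, 33 were tested, 11 higher and 22 lower (median log2 fold change -0.13). At an unadjusted p below 0.05, 2 were higher and 5 lower, against 6.96% and 4.27% of all tested genes, and 0 were called. Among the lower genes were Pik3ca and Pik3r2, a catalytic and a regulatory subunit of PI3K, with log2 fold changes of -0.96 and -1.38 (SE 0.382 and 0.604), the ribosomal S6 kinase Rps6kb2 (-1.59, SE 0.724) and the transcription factor Foxo6 (-1.65, SE 0.626). On TMM-normalized CPM the groups overlapped in Foxo6 and did not in Pik3ca, Pik3r2 and Rps6kb2. In FPKM those of Pik3ca overlapped too, since Ybx1-KO 3 had 8.61 FPKM and control 3 had 6.89. Pik3r2 and Rps6kb2 passed the filter only through the controls, with means of 0.995 and 0.821 FPKM in Ybx1-KO NPCs. The higher genes were Mlst8, a subunit of the mTOR complexes (1.01, SE 0.429), and Inppl1, a phosphatase of PI3K products (0.84, SE 0.388), neither with overlap. In this list, on TMM-normalized CPM, the Ybx1-KO libraries lay wholly below the controls for 7 genes and wholly above for 4. On that scale the shares of all tested genes were 8.17% and 4.99%. In FPKM, which lacks the TMM factor, the groups overlapped in some genes of both sets, Pik3ca among them. The smallest adjusted p in this list was 0.432 in edgeR.

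**Figure D4:**
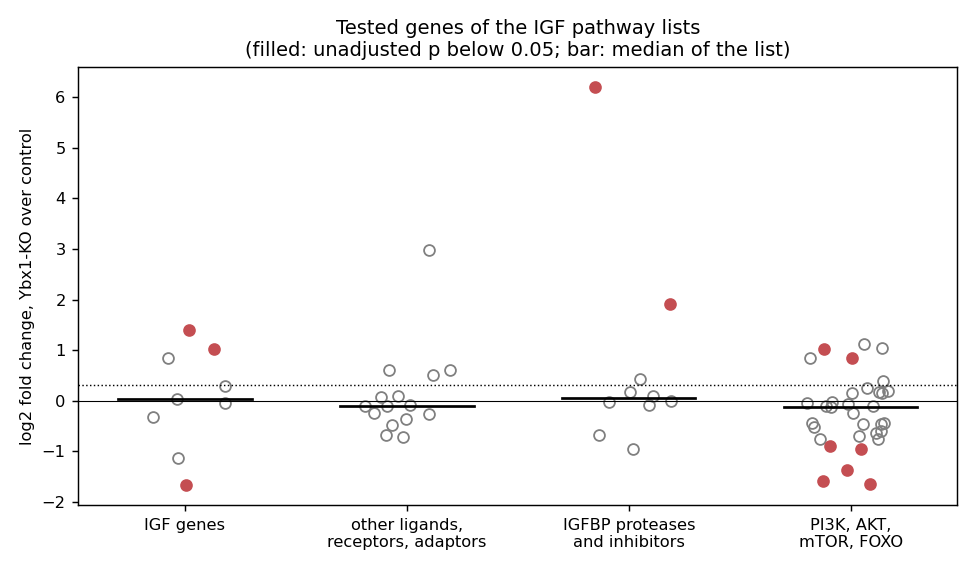
Log2 fold change (Ybx1-KO over control, vertical axis) of the tested genes in the 10 IGF genes and the 3 pathway lists, 1 point a gene. Filled points have an unadjusted p below 0.05, bars are list medians, from -0.13 to 0.046, and all lie below the dotted line at the median of all tested genes, 0.31. The highest point is Klk1, whose fitted value rests on 1 count in the controls.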

How the data were processed

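The authors mapped stranded, paired-end libraries of total RNA, counted read pairs on genes with HTSeq 0.6.1p1 on a GENCODE annotation (mm10, per the labels) and deposited raw counts per gene symbol, 1 table a library, with nothing pooled. The aligner and the strand setting are not given in the sources used here. The counter's 5 tallies were left out of library sizes.

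Counts were tested across all genes in R 4.3.3 with edgeR 4.0.16 (TMM, quasi-likelihood test, no covariate). Calls needed a Benjamini-Hochberg p under 0.05 with a fold over 1.5. Tested genes had FPKM above 1 on average in control or Ybx1-KO libraries, using exon lengths from GENCODE M21 on GRCm38, where 47624 of 51733 symbols matched directly and 359 by an older symbol. Coordinates come from the same annotation. The study's filter and thresholds were kept, but its limma-voom test was an alternative (limma 3.58.1), as was DESeq2 1.42.0. Others were 3 scalings, 4 filters, protein-coding genes alone, a robust fit, no fold limit and leaving out each library. Standard errors are the log2 fold change over the root of the test statistic. Single genes were also compared by a two-sided exact permutation test of CPM. The edgeR code was tested on simulated data with the depths and dispersions of these libraries. It recovered the size of known fold changes, all larger than those of the IGF genes, but it missed many changed genes. False calls made up a larger share of its calls than the adjusted p allows. Only the main fit was simulated. The error of calls under the alternatives was thus not measured, and calls that appear only there are weak evidence.

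All 10 IGF genes are named. Of the pathway lists, genes with an unadjusted p below 0.05 or else the 3 smallest are named, except 1 that is not reported here. Of marker lists, the 2 with the highest mean CPM could be named. Insr and Stc1 were named after their values were seen. The genes and lists were chosen with earlier results of these data known.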

Additional observations from a re-analysis of the deposited data

How the results depend on the processing

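No paired analysis was possible because the labels give no numbers that tie control to Ybx1-KO libraries. Against 0 genes called by edgeR, where 2394 had an unadjusted p below 0.05, DESeq2 called 214 genes and 1 IGF gene (Igfbp4), with a log2 fold change of Ybx1 of -2.44 that passed. Without a filter on low counts, edgeR called 193 genes and no IGF gene, and Ybx1 passed at -2.52. Limma-voom called 0, with 1655 genes at an unadjusted p below 0.05. Leaving out 1 library in turn gave 0 to 725 called genes and 0 to 1 called IGF genes (Igf1). The counts were 73 without control 2, 696 without Ybx1-KO 1 and 725 without Ybx1-KO 2, and, with the gene set of the full comparison kept, a setting chosen after seeing the data, 71, 28 and 419, with 46 without Ybx1-KO 3. Ybx1 then ran from -3.49 to -1.95. The cause was not tested.

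Igf1, Igf1r, Igfbp2, Igfbp3, Igfbp4 and Igfbp7 kept their direction in all settings. Igfbp5 turned to -0.28 with limma-voom, -0.024 when scaled by library totals alone and -0.020 without a filter, and Irs2 to 0.020 with DESeq2 and with size factors in edgeR and to 0.013 with filterByExpr. With libraries left out, Igfbp5 ran from -1.02 to 0.41, Irs1 from -1.24 to 0.043 and Irs2 from -0.69 to 0.31. On the genes tested with all 6 libraries, the turned values were -0.085, -0.068 and -0.96 for Igfbp5 without control 1, control 3 and Ybx1-KO 2, 0.30, 0.077 and 0.24 for Irs2 without control 2, Ybx1-KO 1 and Ybx1-KO 3, and 0.011 for Irs1 without Ybx1-KO 3. Scaling by library totals alone moved the median of all genes from 0.31 to 0.51. This median was 0.081 with filterByExpr, 0.12 with the FPKM filter scaled by TMM, 0.15 with limma-voom and 0.70 without a filter. Without Ybx1-KO 3 it was 0.013, or -0.066 on the genes tested with all 6 libraries. Shares by CPM moved by over 1 SD in 6 of 12 cases.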
